A study of Pan paniscus with 11 samples.

Results

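Cadherins and the actin-linked proteins that anchor them were examined in cultured bonobo (Pan paniscus) fibroblasts. The members were chosen by name as 10 genes, CDH2, CDH11, CDH13, CTNNB1, VCL, ACTN1, FLNA, CALD1, CNN2 and MYH10, together with every probe set that the array's annotation assigns to them. A probe set is the group of short probes whose signals were merged into 1 value. The annotation gave 12 probe sets, of 12625 on the array, for 7 of the 10 genes. It assigned none to CDH13, FLNA or CNN2, which were not analysed here. Of these 12 probe sets, 11 exceeded the floor of 100 in at least 5 of the 11 cultures and were tested, and 10 exceeded it in all 11. The untested one was 1 of the 2 MYH10 probe sets, with values above the floor in 3 cultures only, 132 in male line 4 and 112 and 151 in female lines 1 and 4.

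Total RNA of each culture was hybridised to 1 human array. The culture of a 4-year-old male harvested at 50% confluence was set against the standard culture of the same line, which is male line 1 here. Ages were 4, 2, 12, 17 and 19 years for the animals of male standard lines 1 to 5, and 9, 2, 4, 20 and 20 years for those of female standard lines 1 to 5. The labels call the animals normal, name no treatment or genetic change, and give neither passage number nor the confluence of the standard cultures. Each line is 1 animal and 1 culture, so p-values measure the spread between lines, in which animal, culture and array are not separated.

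Cadherins are calcium-dependent receptors through which neighbouring cells hold each other. The cytoplasmic tails of classical cadherins bind beta-catenin, which links them through alpha-catenin to actin filaments. Vinculin and alpha-actinin reinforce that link, and non-muscle myosin pulls on it. Vinculin and alpha-actinin also serve at focal adhesions, where integrins hold the cell to its matrix. In fibroblasts N-cadherin and cadherin 11 are the usual cell-to-cell adhesion receptors, whereas E-cadherin marks epithelia and VE-cadherin marks endothelium.

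All 16 fibroblast markers with a probe set were above the floor in all 11 cultures by their lead probe set. By the same rule 2 of 17 epithelial markers were (KRT8 at 624 to 1313 and SFN at 389 to 925), 1 of 10 endothelial markers (ERG at 295 to 498), 2 of 9 blood markers (CD3E at 118 to 290 and CD68 at 144 to 703) and 0 of 8 melanocyte and Schwann cell markers. The epithelial marker PPL was above the floor in part of the cultures and reached 1234. The cadherin family genes among these markers were CDH1, CDH3, DSG3 and DSC3 of epithelia, CDH5 of endothelium and CDH19 of melanocytes and Schwann cells. They reached at most 129, 146, 219, 115, 113 and 139. Of the skeletal and smooth muscle markers 2 of 10 were above the floor throughout by their lead probe set, ACTA2 and SMTN. Counting any probe set of a gene, 3 were, with MYH11 the third. The summed intensity of all 15 probe sets of this list was 5768 to 30903 in male lines and 12226 to 29040 in female lines. In that list MYH11 reached 6163, MYOG 405, ACTA1 348 and the muscle cadherin gene CDH15 285 in some cultures, whereas MYOD1 reached 141 and DES stayed at the floor. Array quality was uneven. The ratio of 3' to 5' signal for the ACTB control was 0.669 in the 50% confluence culture and 2.27 in male line 4, against 0.853 to 1.44 in the other lines, and the controls against 18S ribosomal RNA lay between 1508 and 2611 at 50% confluence, against 100 in the standard culture of that line.

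CDH2, which encodes N-cadherin, varied more between lines than any other member. Its lead probe set, the one of higher mean signal where a gene has several, read 1206, 558, 882, 946 and 2450 in male lines 1 to 5, against 482, 1905, 4070, 3419 and 2506 in female lines 1 to 5. Female lines 2 to 5 lay above 4 of the 5 male lines, female line 1 was the lowest of all, and the sexes overlapped. The range was 8.44-fold, and log2 intensity had an SD between lines of 1.08, at the 98.4th percentile of the 7333 tested probe sets, whose median SD was 0.43. Its second probe set read 100, 100, 112, 203 and 191 in male lines, against 100, 304, 503, 431 and 212 in female lines. It ordered the lines much like the first, with a Pearson r of 0.87 and a Spearman rho of 0.85 over 10 lines, and 0.82 for r without the 2 lines farthest from the median of the lead probe set. Both probe sets were highest in female line 3.

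CDH11, which encodes the mesenchymal cadherin 11, was steadier. Its lead probe set read 3037, 3278, 2590, 2257 and 2486 in male lines, against 3260, 3409, 2979, 3261 and 4463 in female lines. Only male line 2 and, narrowly, male line 1 reached the female range. The SD was 0.28, at the 13.8th percentile. The second probe set ran from 1025 to 1812 in male lines and from 1356 to 2335 in female lines, with an r of 0.73 and a rho of 0.78 between the probe sets. Both were highest in female line 5.

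CTNNB1 encodes beta-catenin, which binds cadherin tails and is also the transcriptional partner of Wnt signalling. It was the steadiest member. It read 3461, 3349, 4321, 4500 and 3525 in male lines, against 3654, 3885, 5104, 3607 and 3742 in female lines, an SD of 0.19 at the 2.82nd percentile. The sexes covered nearly the same range, and female line 3 was the highest.

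VCL, the gene of the actin-linking protein vinculin, read 3846, 3584, 3199, 5159 and 4153 in male lines, against 3195, 3695, 4098, 3332 and 3956 in female lines. Male line 4 was highest, and its SD of 0.21 lay at the 4.04th percentile. ACTN1 encodes alpha-actinin 1, which crosslinks actin filaments. Its lead probe set read 7250, 5049, 3138, 4476 and 8732 in male lines, against 5889, 6643, 4702, 7325 and 6748 in female lines. Male lines spanned the whole range of the gene and female lines its middle. The second ACTN1 probe set read 3541, 3534, 2250, 3391 and 3915 in male lines, against 3857, 4213, 4657, 3354 and 4091 in female lines. Male line 3 was lowest on both, but the remaining order differed. The r between them was 0.58 and the rho 0.22, and r was -0.36 without the 2 lines farthest from the median of the lead probe set, so their likeness rests on those lines.

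CALD1 encodes caldesmon, which binds actin and tropomyosin and inhibits myosin. Its lead probe set read 1541, 638, 680, 2819 and 1139 in male lines, against 1375, 1795, 2204, 1563 and 1246 in female lines. Male line 4 was highest and male lines 2 and 3 lowest, a 4.42-fold range with an SD of 0.67 at the 88.3rd percentile. The second probe set ran from 528 to 1893 in male lines and from 726 to 1803 in female lines, also with male line 4 at the top, and the r between the probe sets was 0.77. MYH10, the gene of the non-muscle myosin IIB heavy chain, read 233, 154, 174, 274 and 165 in male lines, against 357, 152, 383, 312 and 246 in female lines. These values lie close to the floor, and the SD of 0.50 rests on small intensities.

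**Figure D1:**
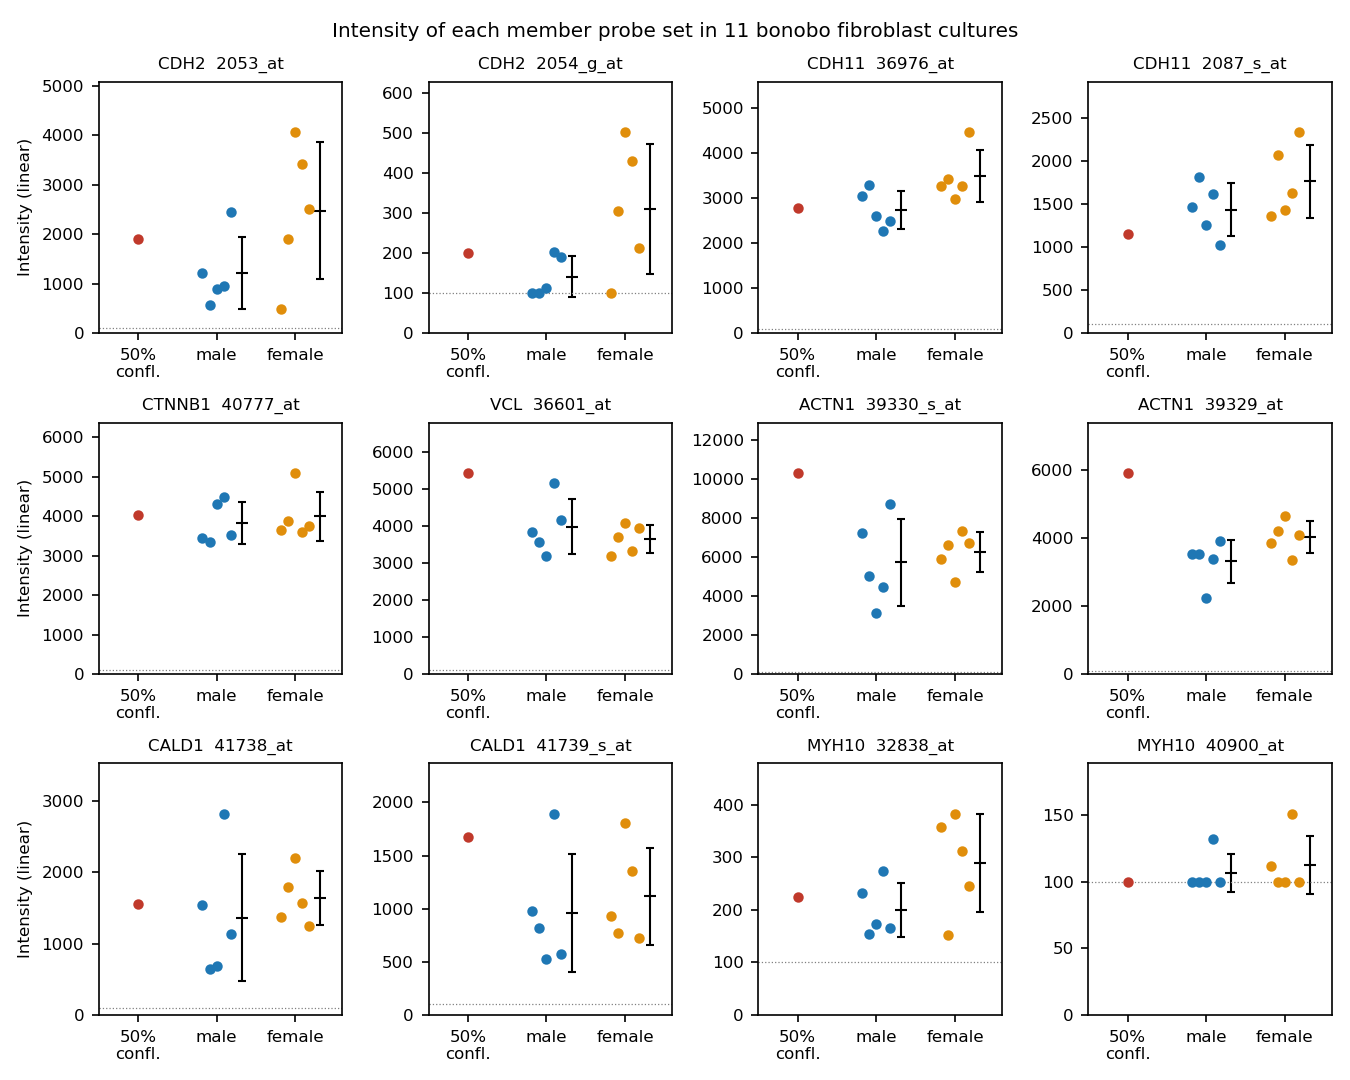
Intensity on a linear scale of the 12 member probe sets, 1 panel each with the lead probe set of a gene before its other one, in the 50% confluence culture of male line 1 (red), the 5 male standard lines (blue, lines 1 to 5 from left to right) and the 5 female standard lines (orange, same order). Black marks are the mean ± SD of each sex (n = 5) and the dotted line is the floor of 100. CDH2 spreads from 482 to 4070, whereas CTNNB1 stays between 3349 and 5104.

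The extremes were shared unevenly among the lines. Of the 11 tested member probe sets, 5 were highest in female line 3 (both of CDH2, CTNNB1, MYH10 and the second of ACTN1), a line that was highest for 12.3% of all tested probe sets. Another 3 were highest in male line 4 (VCL and both of CALD1), which was highest for 19.0% of all tested probe sets and whose ACTB ratio was the highest. The lowest values of 3 probe sets (both of ACTN1 and the second of CALD1) lay in male line 3, against 8.46% of all tested probe sets with a single lowest line. Of the 11, 6 had an SD above the median of all tested probe sets, and their median SD was 0.44, close to 0.43 over all.

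**Figure D2:**
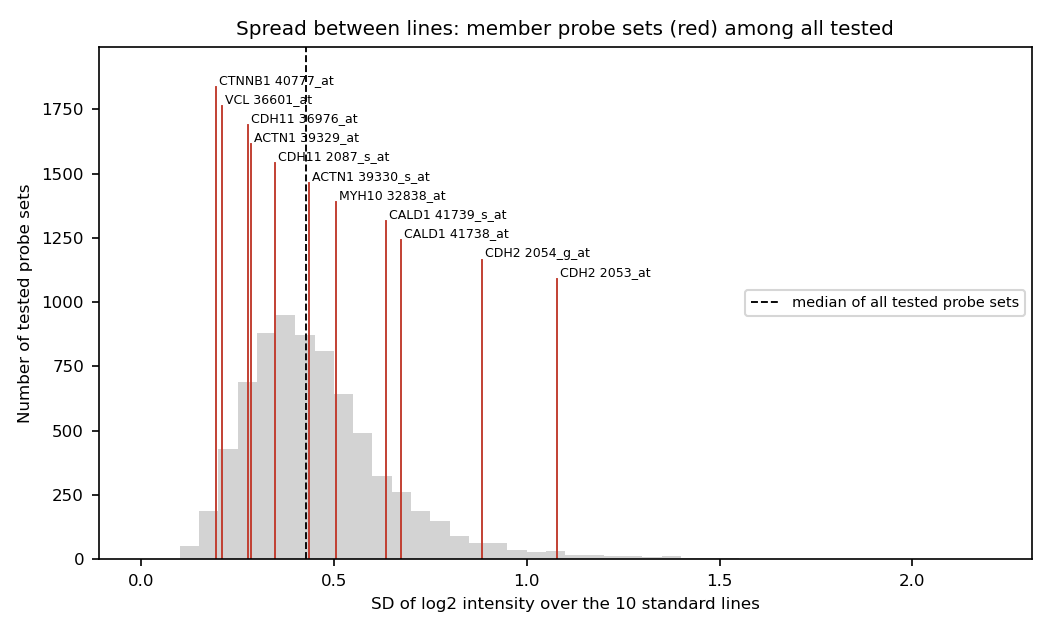
Number of tested probe sets (grey, 7333 in all) by their SD between the 10 standard lines, in log2 units, with each of the 11 tested member probe sets as a red line and the median of all as a dashed line. CDH2 stands at 1.08 and 0.88, and CTNNB1 and VCL at 0.19 and 0.21, on opposite sides of the median of 0.43.

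The members did not move as a block from line to line. Over the 10 lines, the 21 pairs of lead probe sets had Pearson correlations of log2 intensity between -0.63 and 0.62, given here as a description, since all points share the scaling of their arrays. The lowest belonged to CTNNB1 and ACTN1 (rho -0.62, and r -0.64 without the 2 lines farthest from the CTNNB1 median). The highest belonged to VCL and CALD1 (rho 0.42, r 0.48 without the 2 farthest lines). CDH2 and CDH11 had an r of 0.18, and the cadherins against CTNNB1 gave 0.29 for CDH2 and -0.35 for CDH11.

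Genes outside the group tracked each member more closely, the best having been taken from 5370 tested genes over 10 lines. The 3 of highest r were TAOK2 (0.89), HNRNPAB (0.88) and NCAPH2 (0.88) for CDH2, and TRIM27 (0.88), HMG20B (0.86) and NENF (0.84) for CDH11. For CTNNB1 they were KIF14 (0.95), PTGIS (0.94) and IL4 (0.92), whose highest intensities were 305, 671 and 194. For VCL they were ATP5PB (0.95), TXN (0.93) and MRPS31 (0.92), and for ACTN1 they were ZRSR2 (0.90), SLC20A2 (0.88) and HOXD10 (0.88). ELF2 (0.94), PEX14 (0.92) and NID2 (0.89) were closest to CALD1. MYH10 was closest to 2 pregnancy-specific glycoprotein genes, PSG1 (0.93) and PSG11 (0.90), whose sequences are so alike that their probe sets may read each other, and to STC1 (0.87). Several of these genes touched the floor of 100 in some line.

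The next comparison asked whether the members differed between male and female lines. Mean intensity was lower in males for 10 of the 11 tested probe sets by the age-adjusted estimate, VCL being the exception, but none passed the test. The median log2 difference of the members was -0.30, against 0.00 over all tested probe sets. With limma, 0 of 11 had an adjusted p under 0.05, where 2 of 7333 did over the array, 0.0273%. At an unadjusted p under 0.05 there was 1 of 11, the second CDH2 probe set, and 171 of 7333 over the array. Male and female lines overlapped for all 11, and 0.286% of all tested probe sets had no overlap.

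CDH2 had the largest estimates. The lead probe set averaged 1208 ± 731 in males and 2476 ± 1390 in females (SD, n = 5 each), a log2 difference of -0.90 ± 0.48 (SE, limma adjusted p = 0.9999, unadjusted p = 0.0824). The other averaged 141 ± 51.3 in males and 310.0 ± 163 in females, a log2 difference of -0.997 ± 0.41 (limma unadjusted p = 0.0287, adjusted p = 0.9999), with 2 male lines and 1 female line at the floor. CDH11 averaged 2730 ± 418 in males and 3474 ± 574 in females, a log2 difference of -0.35 ± 0.19 (limma adjusted p = 0.9999). MYH10 averaged 200 ± 51.4 in males and 290.0 ± 93.0 in females (-0.50 ± 0.32), and CALD1 1363 ± 894 in males and 1637 ± 379 in females (-0.46 ± 0.35). The smallest differences were -0.06 ± 0.18 for CTNNB1 and 0.11 ± 0.19 for VCL, and ACTN1 gave -0.20 ± 0.26. Single lines weighed on these estimates, and none passed without any line. Without male line 4, which stood apart by its ACTB ratio, the lead probe sets gave -0.80 for CALD1, 0.016 for VCL and -0.78 for CDH2. CALD1 gave -0.22 without male line 2 and -0.26 without male line 3, and ACTN1 gave -0.0023 without male line 3, -0.34 without male line 1 and -0.38 without male line 5. CDH2 gave -0.52 without female line 3 and -1.40 without female line 1, and CDH11 gave -0.22 without female line 5.

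Age gave no call either. By limma, 0 of the 11 member probe sets passed and the unadjusted p was under 0.05 for 0 of them, and 0% of all 7333 tested probe sets passed, 251 of them having an unadjusted p under 0.05. Estimates were positive for 6 of 11, with a median of 0.06 log2 per 10 years against 0.00 over all. The lead CDH2 probe set had the largest, 0.43 ± 0.33 per 10 years (SE, limma adjusted p = 0.999), which was 0.24 without male line 5 and 0.68 without female line 3. By age it read 558 and 1905 at 2 years, 1206 and 4070 at 4 years, 482 at 9 years, 882 at 12 years, 946 at 17 years, 2450 at 19 years, and 3419 and 2506 at 20 years. High and low lines thus stood side by side among the young animals, and at 2 and at 4 years the male line was the lower. The other estimates ran from -0.08 for the second ACTN1 probe set to 0.23 for the second of CDH2.

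Age slopes were also compared between the sexes. In the limma interaction fit 0 of 11 passed, and unadjusted p was under 0.05 for 0 of 11, where 0.0136% of all tested probe sets passed and 355 had an unadjusted p under 0.05. The male minus female slopes ran from -0.42 ± 0.25 log2 per 10 years for CDH11 to 0.77 ± 0.46 for CALD1, both lead probe sets and both with an adjusted p of 0.973 (limma). The CALD1 value was 0.36 without male line 4, 0.42 without male line 2 and 1.13 without male line 1.

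**Figure D3:**
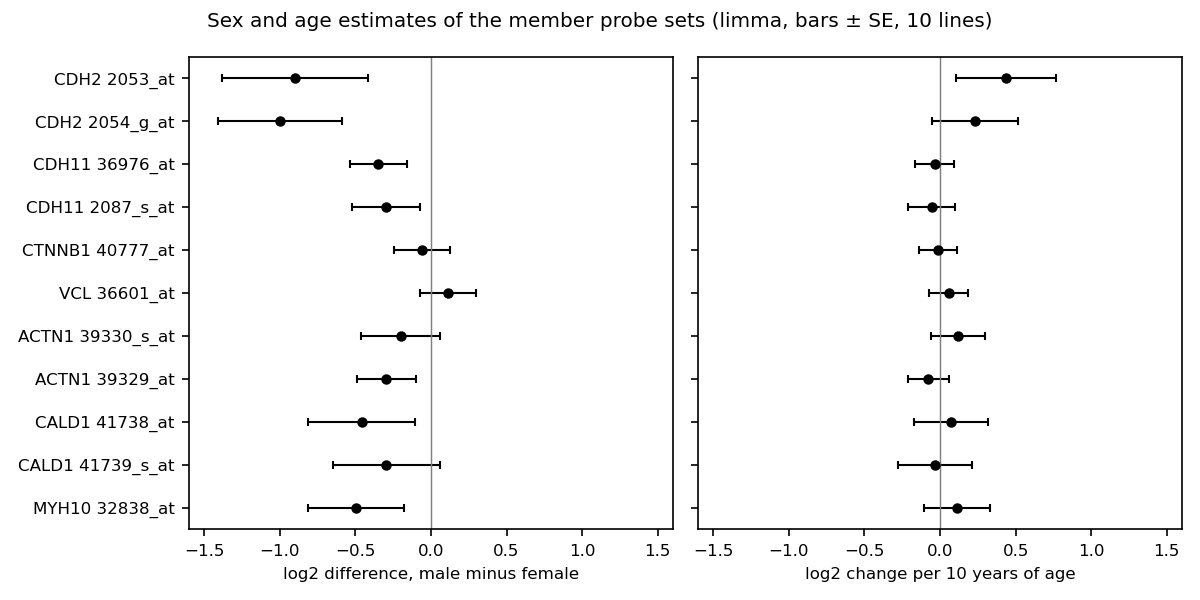
Estimates of the 11 tested member probe sets with bars of ± SE from the joint limma fit over 10 lines. Left, log2 difference, male minus female, where CDH2 stands lowest at -0.90 and -0.997. Right, log2 change per 10 years of age, where the lead CDH2 probe set stands highest at 0.43.

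The last comparison set the 50% confluence culture of male line 1 against the standard culture of that line. Each state had 1 array, which leaves no replicate check and no test. ACTN1 and VCL stood higher at 50% confluence. ACTN1 read 10336 at 50% confluence and 7250 in the standard culture on the lead probe set (1.43-fold), and 5927 at 50% confluence and 3541 in the standard culture on the second (1.67-fold). VCL read 5443 at 50% confluence and 3846 in the standard culture (1.42-fold). For all 3 probe sets the 50% confluence culture lay above each of the 10 standard lines, which held for 10.8% of the 6147 probe sets above the floor in both cultures, and 0 members lay below all lines, against 6.77%. Of 5 settings (deposited scaling, quantile normalization, median centring, a floor of 200 and a pseudocount of 50), VCL did not lie above all lines under quantile normalization, with 4825 at 50% confluence against a highest standard line of 5639.

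The log2 difference was 0.51 for the lead ACTN1 probe set, 1.17 times its SD between lines, and 0.74 for the second, 2.62 times its SD. For VCL it was 0.50, 2.39 times its SD. CDH2 read 1895 at 50% confluence and 1206 in the standard culture on the lead probe set, a log2 difference of 0.65 that was 0.604 of its SD between lines. On the second it read 199 at 50% confluence and was at the floor in the standard culture. CDH11 was lower on both probe sets, with 2776 at 50% confluence and 3037 in the standard culture on the lead (-0.13) and with 1151 at 50% confluence and 1464 in the standard culture on the second (-0.35). CTNNB1 read 4042 at 50% confluence and 3461 in the standard culture (0.22).

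The 2 CALD1 probe sets parted. On the second the gene read 1676 at 50% confluence and 974 in the standard culture (0.78), whereas on the lead it read 1556 at 50% confluence and 1541 in the standard culture (0.01). MYH10 read 225 at 50% confluence and 233 in the standard culture (-0.05). In all, 7 of the 10 member probe sets above the floor in both cultures were higher at 50% confluence and 3 lower, with a median of 0.36 against 0.01 over all probe sets. None of the 10 was over 2-fold higher or lower, against a background of 4.88% past 2-fold upwards and 4.75% past it downwards. Differences larger than the SD between lines were found for 5 of the 10, and for 44.6% of all probe sets.

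**Figure D4:**
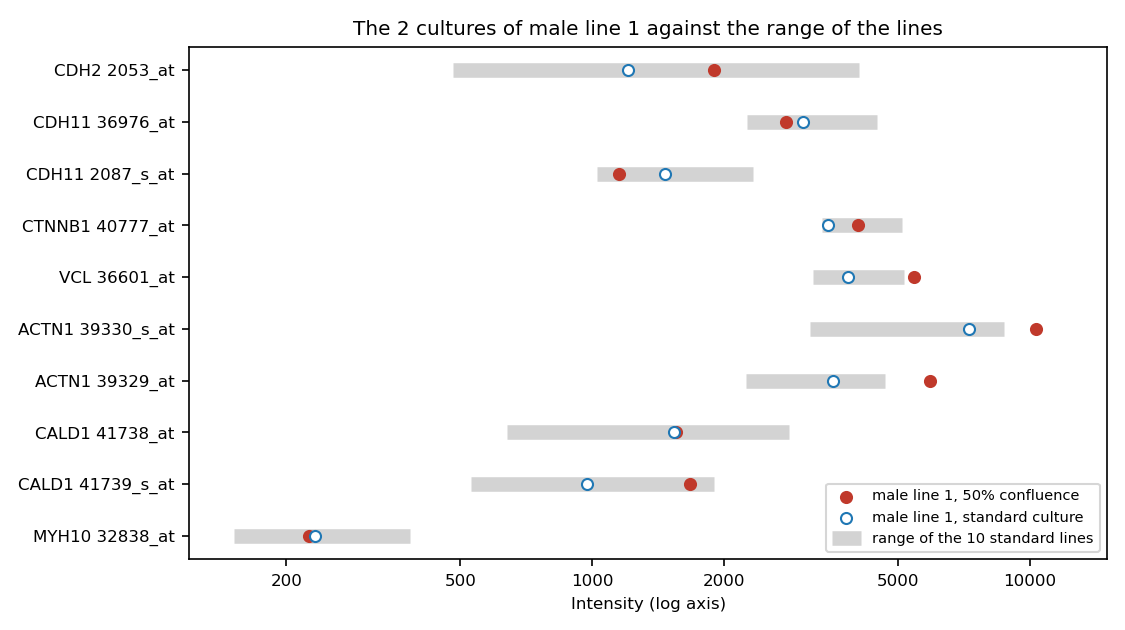
Intensity on a log axis of the 10 member probe sets above the floor in both cultures of male line 1, with the 50% confluence culture as a filled red point, the standard culture as an open blue point and the range of the 10 standard lines as a grey bar. The red points of ACTN1 and VCL lie to the right of their grey bars, and those of the other genes lie inside.

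Other genes of cell adhesion and of the actin cytoskeleton were then set beside the members, each by its brightest tested probe set. Over the 4497 genes above the floor in both cultures, 4.71% were over 2-fold higher at 50% confluence, 4.67% over 2-fold lower, 9.98% above all 10 standard lines and 7.29% below all of them, and the median difference was 0.00. Among actin-binding and crosslinking genes, 23 of 35 were higher at 50% confluence (median log2 0.18), with 6 over 2-fold higher and 0 over 2-fold lower, and 11 lay above all 10 lines and 2 below. The median was 0.06 under quantile normalization. The 6 were CNN1, the gene of the contractile protein calponin 1 (1154 at 50% confluence, 362 in the standard culture), the cortactin gene CTTN (5059 against 1906, the 50% confluence culture first in each pair here), the ezrin gene EZR (5583 against 2109), the tropomyosin gene TPM1 (16186 against 6510), the other non-muscle alpha-actinin gene ACTN4 (12996 against 6205) and the spectrin gene SPTAN1 (2078 against 1013). Of these, SPTAN1 lay within the range of the lines. For CTTN and SPTAN1, but not CNN1, EZR, TPM1 or ACTN4, the standard culture of male line 1 was the lowest standard line. Another TPM1 probe set went the other way (1586 against 2023), and another was also over 2-fold higher (7061 against 3508). Under quantile normalization ACTN4 was under 2-fold, at 0.90 log2. SPTBN1 (155 against 253) and ARPC5 (1133 against 1522) were the 2 genes below all lines by their lead probe sets. Another RDX probe set was over 2-fold lower and below all lines (148 against 312, lowest line 156), whereas its lead was higher (342 against 295). Another TPM2 probe set was over 2-fold higher (19898 against 9406).

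Of the non-muscle myosin genes and their regulators, 19 of 21 were higher at 50% confluence (median log2 0.27), 2 over 2-fold and 5 above all lines. The 2 were MYLK, the gene of the kinase that activates myosin (537 against 207), and the myosin light chain gene MYL12A (6002 against 2742, 0.99 log2 under quantile normalization). For MYL12A, but not MYLK, the standard culture of male line 1 was the lowest standard line. MYH9, which encodes the non-muscle myosin IIA heavy chain, read 11346 against 7759, above all lines like MYL12A, CDC42, RHOA and MYO1C, the last of them in 4 of 5 settings. Another RHOA probe set was higher too (6909 against 4722) but lay within the range of the lines. A second CDC42BPA probe set was over 2-fold lower and below all lines (164 against 375, lowest line 178), whereas its lead barely differed (533 against 538). MYH10 itself, as given above, differed by -0.05.

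Catenins and junction adaptors were higher in 9 of 12 (median 0.35), with the poliovirus receptor and adhesion molecule gene PVR over 2-fold (455 against 130) and 4 above all lines. CTNNA1, the alpha-catenin gene, was 1 of these 4 by its lead probe set (2341 against 1888), in 4 of 5 settings, but 2 of its 4 other tested probe sets were lower (375 against 432 and 1010 against 1108). Of the focal adhesion adaptors 13 of 22 were higher (median 0.11, or 0.07 under quantile normalization), 2 over 2-fold and 3 above all lines. The 2 were the focal adhesion kinase gene PTK2 (269 against 108) and FHL2 (3785 against 1732), while the talin gene TLN1 read 7537 against 7650. Male line 1 in standard culture was the lowest standard line for PTK2 and near the lowest, 1725, for FHL2.

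Of 40 further cadherin superfamily genes, 32 had a probe set, 12 were tested and 4 were above the floor in all 11 cultures (CLSTN1, CLSTN3, FAT1 and PCDH1). The calsyntenin genes CLSTN3 (1046 against 380) and CLSTN1 (2608 against 1249) were over 2-fold higher at 50% confluence, within the range of the lines. For CLSTN3, but not CLSTN1, the standard culture of male line 1 was the lowest standard line. In all, 6 of 8 cadherin genes above the floor in both cultures were higher at 50% confluence (median 0.33). CDH16 read 386 in the standard culture and was at the floor at 50% confluence. Another PCDH9 probe set was over 2-fold higher (520 against 207), whereas its lead was lower (232 against 262).

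**Figure D5:**
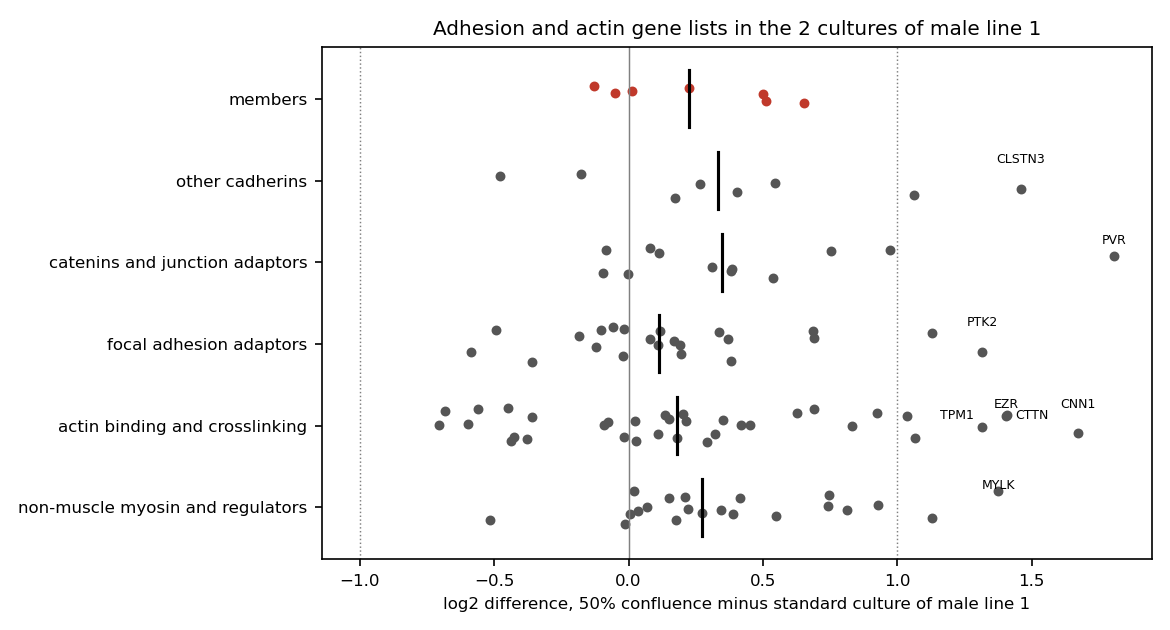
Log2 difference, 50% confluence minus standard culture of male line 1, of each gene above the floor in both cultures, for the members (red) and 5 lists of adhesion and actin genes (grey). Black bars are list medians, from 0.11 to 0.35, dotted lines mark 2-fold, and genes beyond 1.3 log2 are named. Each gene is shown by its lead probe set only, and no lead probe set lies beyond 2-fold on the lower side.

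Other signals differed between these arrays as well. The summed intensity of the skeletal and smooth muscle markers was 26712 at 50% confluence and 17093 in the standard culture, led by the smooth muscle myosin gene MYH11 (3997 against 874), and CNN1 belongs to that list too. The summed fibroblast markers stood at 200674 at 50% confluence and 240307 in the standard culture. The 18S ribosomal RNA controls and the ACTB ratio given above also set the 50% confluence array apart, with an ACTB ratio of 0.669 against 1.42. The same ratio for the GAPDH control did not, at 0.815 against 1.17, within the standard lines (0.691 to 1.67). The deposited floor also differed, 90 on the 50% confluence array and 100 on the standard array, before values under 100 were set to 100. The part of these signals and of the floor in the differences of the members was not tested. In bulk RNA, fewer cells of a type and less RNA per cell cannot be told apart.

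In the sex and age fits, 0 genes of these 5 lists passed with limma. The most variable genes over the 10 lines were CNN1 (SD 1.14), TPM2 (0.94) and the transgelin gene TAGLN (0.70) among actin-binding genes and RHOB (1.05), MYLK (0.90) and CDC42EP3 (0.70) among myosin regulators. They were LPXN (0.87), PDLIM5 (0.86) and PDLIM7 (0.75) among focal adhesion adaptors, APC (0.59), PKP3 (0.57) and PVR (0.54) among junction adaptors, and PCDH9 (0.79), PCDH1 (0.66) and CDH16 (0.66) among the other cadherins. CDH2, at 1.08, was exceeded by CNN1 among them.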

How the data were processed

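Each culture has a deposited intensity, a linear whole number, for every probe set. The steps by which the authors summarised and scaled these intensities are, in the sources used here, not given. Per the values, low intensities had been raised to a floor, 100 on 9 arrays and 90 on 2. The 2 were the 50% confluence culture and male line 5. Array means after trimming 2% ran from 408 to 423, so the deposited scaling was kept. Values under 100 were set to 100 and converted to log2. Leaving out 67 controls, the 7333 of the others above 100 in at least 5 of 11 cultures were tested with lmFit and a trended eBayes (limma 3.58.1, R 4.3.3). Sex and age were fitted jointly over the 10 standard lines, with the interaction fitted separately. Two-sided p-values were adjusted by Benjamini-Hochberg across all 7333 at a threshold of 0.05. Gene names came from a probe annotation of 2016, for probe sets with 1 symbol. Because the probes match the human genome, a mismatch to bonobo RNA can reduce a signal. Levels of different genes were therefore not ranked against each other. Markers were read by whether they exceeded the floor, and the summed intensity of a marker list was compared only between cultures. The probe set of highest mean log2 leads a gene. The number of arrays limits the precision. Distances from the median, SD and correlations are on log2 intensity.

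Members and gene lists were chosen with earlier results of these data known. Named by rule were all member probe sets, list genes over 2-fold at 50% confluence and the 3 most variable per list. So were the 3 genes of highest r with each member. Genes outside the range of the lines and other probe sets of list genes were added after their values were seen. The values of TLN1, CTNNA1 and the markers were also added after they were seen. Alternatives were quantile normalization, median centring, a floor of 200, a pseudocount of 50, no probe filter, no intensity trend, array weights, log2 of age, the median over a gene's probe sets, and the omission of each line in turn. The joint limma fit was tested on simulated data.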

Additional observations from a re-analysis of the deposited data

Results flagged for a closer look

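Among 22 groups of values, 11 probe sets in each sex, 2 held a line far from the other 4. CTNNB1 read 5104 in female line 3 and at most 3885 in the other female lines. The second ACTN1 probe set read 2250 in male line 3 and at least 3391 in the other male lines. The rule marks about 1 in 20 groups by chance.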

How the results depend on the processing

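The counts over the members (75 recomputed values) stayed on the same side of their thresholds or within 1.5 times of the reported count under every alternative run. Medians are not among these values. For the 7 member genes, the median log2 difference between the cultures of male line 1 was 0.14 under quantile normalization, against 0.22 with the deposited scaling. None of 579 refitted member estimates of sex, age or slope passed (lowest adjusted p 0.5259, limma, CALD1 slope without male line 5). Of the single estimates, 31 changed sign, all among estimates that had not passed, and the cause was not tested. With a floor of 200, the second CDH2 probe set changed with age by -0.074 and the MYH10 slope difference was 0.049. With array weights, the lead CALD1 probe set changed with age by -0.054 and the slope difference of the second was -0.042. With log2 of age, CTNNB1 gave 0.0073. Leaving out 1 line at a time, the sex difference of CTNNB1 ran from -0.13 to 0.042. Age estimates ran from -0.14 to 0.028 and -0.18 to 0.039 for the lead and second of CDH11, -0.062 to 0.054 for CTNNB1, -0.019 to 0.21 for the lead of ACTN1, -0.13 to 0.18 and -0.22 to 0.11 for the lead and second of CALD1 and -0.088 to 0.22 for MYH10. Slope differences ran from -0.037 to 0.73 for the lead of CDH2, -0.60 to 0.092 and -0.040 to 0.23 for the lead and second of ACTN1, -0.35 to 0.54 for the second of CALD1 and -0.25 to 0.39 for MYH10. The other sex differences kept their sign, from -1.40 to -0.52 and -1.35 to -0.69 for the lead and second of CDH2, -0.42 to -0.22 and -0.39 to -0.15 for CDH11, -0.38 to -0.0023 and -0.39 to -0.16 for ACTN1, -0.80 to -0.22 and -0.62 to -0.078 for CALD1, -0.74 to -0.34 for MYH10 and 0.016 to 0.19 for VCL. The slope difference of the lead of CALD1 ran from 0.36 to 1.13. The SD of the second of ACTN1 was 0.16 without male line 3, against 0.28, and that of the second of CDH2 0.51 with a floor of 200, against 0.88. No paired analysis was possible because the line numbers are names only and pair no samples. Signals near the floor (the second CDH2 probe set, MYH10) limit what can be measured, since differences below 100 are not seen.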

Other observations

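Of 91 tested genes of the adhesion and actin lists with a single lowest standard line, 17 (18.7%) were lowest in male line 4. Male line 3 and female line 4 each held 15 (16.5%). Over all tested probe sets with a single lowest line, male line 4 held 14.3%, male line 3 8.46% and female line 4 9.38%. RHOB, the gene of a small GTPase that regulates actin, had a value of 135 in male line 4 and of 714 to 1627 elsewhere among the standard lines. The LIM-domain genes PDLIM4 and PDLIM7 read 263 and 316 there, and the zyxin gene ZYX read 1264. The collagen gene COL1A1 read 2122 in male line 4, against a highest line of 17516. The atypical cadherin gene FAT1 had another pattern, with 3209 in male line 3 and 2729 in male line 5, against 984 to 1681 in the other standard lines. These genes were chosen after their values were seen, and the part of RNA quality in them was not tested.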
